A study of Mus musculus with 2 samples.

Results

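Enteroendocrine cells of the inflamed mouse colon, the hormone-releasing cells of the gut lining, were examined in 2 single-cell RNA-seq libraries. They were the barcodes with at least 5 UMIs (molecular barcodes that count RNA molecules) of the granin genes Chga and Chgb together and a UMI of at least 2 of 10 further genes, Tph1, Gcg, Pyy, Tac1, Resp18, Pcsk1n, Cpe, Ddc, Neurod1 and Cldn14. The rule found 120 members among 17858 kept cells, 34 of 8124 in the wild-type library and 86 of 9734 in the library labelled knockout. Of these, 85 (31 and 54) also passed an epithelial gate of at least 5 UMIs and 3 genes of the pan-epithelial markers and at least 0.1% of UMIs, and are called the epithelial members; the other 35 did not pass it. A barcode was kept from 500 UMIs and 200 genes upward, unless more than 25% of its UMIs were mitochondrial.

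Enteroendocrine cells are scattered singly through the epithelium, sense nutrients, microbial products and stretch, and release hormones by exocytosis of granules packed with granins. In the colon, enterochromaffin cells make serotonin through the enzyme Tph1 and many also make substance P from Tac1, L cells make glucagon-like peptides from Gcg, peptide YY from Pyy and Insl5, and rare D cells make somatostatin from Sst. Transcription factors such as Neurod1, Insm1 and Fev set these fates as the cells leave the crypt.

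Both libraries came from C57BL/6 mice 8 to 10 weeks old that had received DSS (dextran sulfate sodium, a polymer that injures the epithelium and brings on colitis). Proximal and distal colon and rectum were pooled, as were the cells of 3 mice, so that each group is 1 library of 1 pool. One pool was wild type and the other was labelled Elf-1 KO, a knockout of the ETS transcription factor Elf1. The comparison asks how Elf1 affects gene expression in the colitic colon. Since each group is a single library whose cells cannot be traced to a mouse, no difference was tested. Intervals are 95% and cover counting error only, and a count of 0 was taken as 3 UMIs.

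The kept cells had medians of 2041 and 2679 UMIs (wild type and labelled knockout, the order used throughout). The 2 libraries shared 57 barcodes, of which 49 were kept in both and none was a member in both. Elf1 (chromosome 14, 79481194 to 79582494, plus strand, GRCm38) stood at 153 against 147 CPM (summed UMIs of a group of cells scaled to a common total) in the epithelial members, a ratio of 0.962 (0.657 to 1.42), and at 191 against 181 CPM in all other kept cells, so that its RNA did not set the library labelled knockout apart. The sources used here do not say which part of the gene was deleted, and reads from any of its exons count, as may reads of Wbp4 on the opposite strand, so the level is no check of the deletion. All directions below follow the labels.

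The members were then described by marker lists. The gate had used the pan-epithelial markers and the rule all 8 enteroendocrine markers below, so neither list can check the label. Pan-epithelial markers made up a median of 1.05% of UMIs in both sets of epithelial members, against 0.0158% and 0% in the members that failed the gate. The 8 enteroendocrine markers (Chga, Chgb, Tph1, Gcg, Tac1, Resp18, Pcsk1n and Ddc) held a median of 8.13% and 12.1% of UMIs in epithelial members and 0.630% and 0.356% in the others. Each of the 32 members that failed the gate in the library labelled knockout was placed by its largest other-lineage list, however small the lead. These lists were stromal and endothelial markers (17 cells), enteric neuron markers (5), leukocyte markers (5), plasma cell markers (4) and red cell markers (1). Of the 3 such wild-type members, 2 led with enteric neuron and 1 with plasma cell markers. One exception in the library labelled knockout, a barcode of 739 UMIs, held 105 Chga and Chgb UMIs, or 14.2%. It led with plasma cell RNA at 0.677% and missed the gate with 4 pan-epithelial UMIs. Plasma cell markers also led in most wild-type epithelial members, where their median share was 0.379%.

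The threshold met a continuum in the library labelled knockout and a gap in the wild-type library. With 5 or 6 Chga and Chgb UMIs there were 0 and 14 members, none epithelial, and with 7 to 20 there were 2 and 15, of which 1 and 0 were epithelial. Above 20 UMIs stood 32 and 57 members, 30 and 54 of them epithelial. Just outside, at 3 or 4 UMIs with enough further genes, lay 4 and 15 cells, 1 and 0 of them epithelial. Of all other kept cells, 2.98% and 8.05% had a Chgb UMI, and how much of this is free RNA was not tested. By their markers most of the members that failed the gate go against the label enteroendocrine. Most results below are given for the epithelial members, a gate added after these values were seen.

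**Figure D1:**
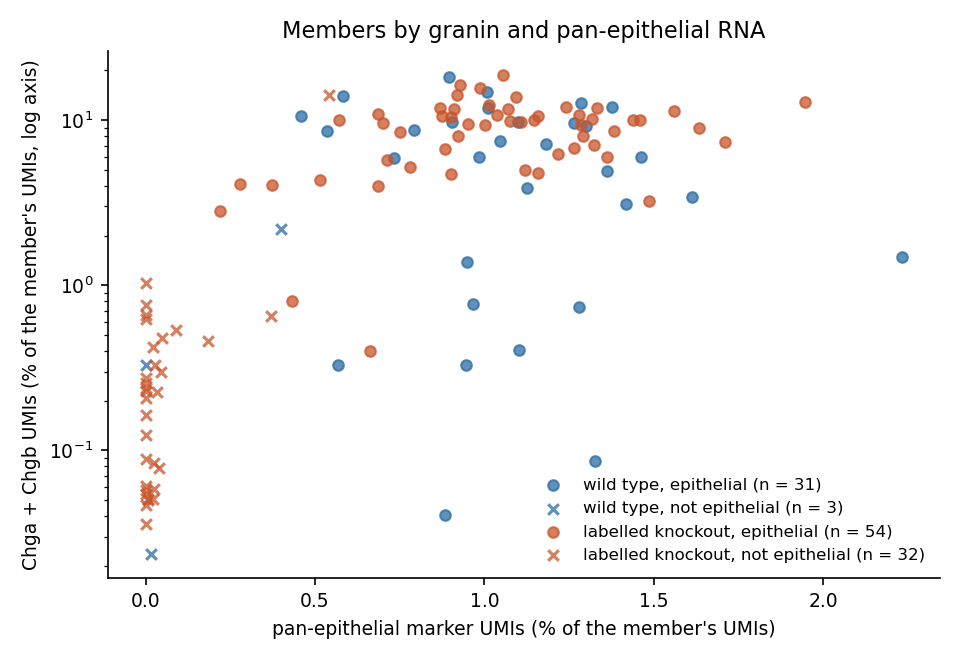
Each point is 1 member, placed by the share of its UMIs from pan-epithelial markers (horizontal axis, percent) and from Chga and Chgb (vertical axis, percent, log scale); colours mark the 2 libraries and crosses the members that failed the epithelial gate. The 35 crosses lie toward the left, at medians of 0.0158% and 0% pan-epithelial UMIs, and 32 of them belong to the library labelled knockout.

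All members made up 0.419% (0.29 to 0.584) of kept wild-type cells and 0.884% (0.707 to 1.09) of those labelled knockout, a ratio of 2.11 (1.40 to 3.24). Without members holding markers of other lineages (5 or more UMIs of leukocyte, stromal, endothelial and enteric glia markers), 19 and 7 members were left. The ratio then turned to 0.308 (0.109 to 0.764). That limit ignores depth. In all other kept cells leukocyte markers stood at 4543 against 21220 CPM and stromal and endothelial markers at 6878 against 18980 CPM. By share, 29 and 41 epithelial members held less than 2% of UMIs of each other-lineage list and are called single-lineage. Epithelial members made up 0.382% (0.259 to 0.541) and 0.555% (0.417 to 0.723), a ratio of 1.45 (0.918 to 2.34) whose interval includes 1. The rest of the epithelium was nearly missing from the library labelled knockout. Other epithelial cells numbered 941 and 5, so that epithelial members were 3.19% (2.18 to 4.50) of wild-type epithelial barcodes and 91.5% (81.3 to 97.2) of the others. Epithelial members were deep, with medians of 7262 and 8377 UMIs and 2806 and 3019 genes, and ranges of 958 to 30857 and 548 to 32431 UMIs. Their median share of mitochondrial UMIs was 4.24% and 2.94%, against 5.56% in the other wild-type epithelial cells. Fewer cells of a type and cells lost in dissociation cannot be told apart in such shares.

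Most epithelial members carried Tph1 RNA and few carried L cell hormones. Cells were sorted into ranges by counts, with 3 UMIs as the limit. A Tph1 class (Tph1 at or above the limit, Gcg and Insl5 together below it) held 17 of 31 wild-type epithelial members, 54.8% (36.0 to 72.7), and 42 of 54 in the library labelled knockout, 77.8% (64.4 to 88.0). A Gcg or Insl5 class held 4 and 2 cells, 12.9% (3.63 to 29.8) and 3.70% (0.452 to 12.8). Cells with both numbered 2 and 8, and cells with neither 8 and 2. Near the limit, 5 and 2 epithelial members had 1 to 4 Tph1 UMIs, and 3 and 9 had 1 to 4 Gcg and Insl5 UMIs. Of the 8 cells with both in the library labelled knockout, 5 held 3 to 5 Gcg and Insl5 UMIs and 3 held more, 27, 129 and 372.

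**Figure D2:**
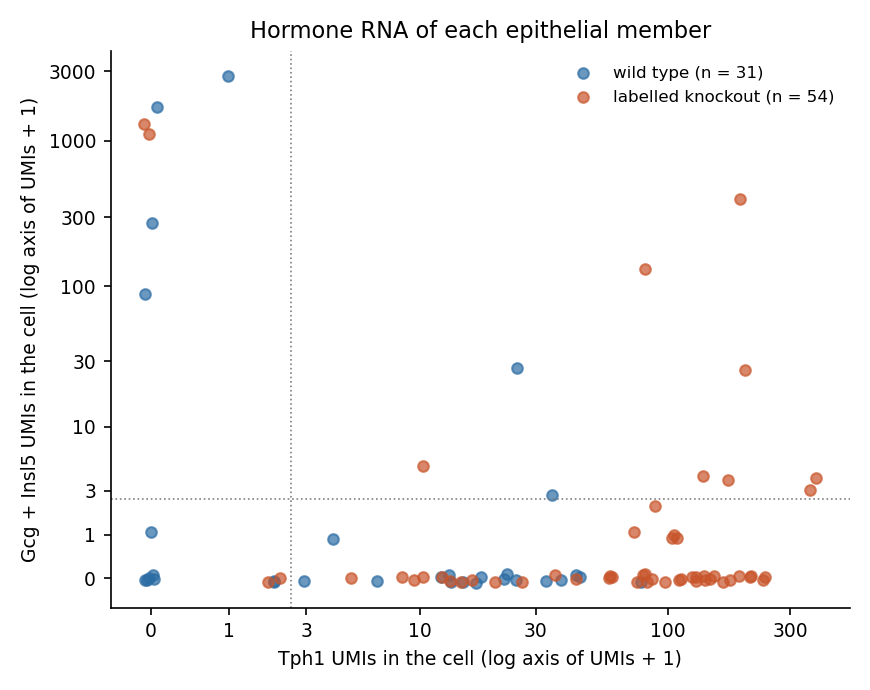
Each point is 1 epithelial member, placed by its Tph1 UMIs (horizontal axis) and its Gcg plus Insl5 UMIs (vertical axis), both on log scales of UMIs + 1 with a small random offset; dotted lines mark the limit of 3 UMIs. Most cells lie along the bottom right, 17 wild-type and 42 labelled knockout cells in the Tph1 class, and 4 and 2 cells stand at the upper left.

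The granins led the members, as the rule required. Chga (chromosome 12, 102554969 to 102565028, plus strand), whose product helps form hormone granules, stood at 9364 against 20960 CPM in the epithelial members, and its relative Chgb (chromosome 2, 132781278 to 132795079, plus strand) at 32560 against 61410 CPM. In all other kept cells they stood at 3.25 against 10.1 and at 8.67 against 26.8 CPM. The summed ratios were 2.24 (2.15 to 2.33) for Chga and 1.89 (1.84 to 1.93) for Chgb. They depended on which cells were weighed. Within the Tph1 class, Chga ran from 4735 through a median of 19070 to 29810 CPM per wild-type cell and from 6768 through 24140 to 43680 CPM in the other library. Chgb ran from 10060 through 71850 to 163200 CPM and from 21250 through 69570 to 162900 CPM, so that the 2 sets of cells overlapped almost fully for Chgb.

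The promoters of Chga, Chgb and Sst are shown because each holds the core of the cyclic AMP response element, the sequence bound by CREB in many hormone genes. They are the 250 bases before the RefSeq start (GRCm38.p6), printed 5′ to 3′ on the gene's strand, with TGACGT and its reverse complement ACGTCA in capitals. Chga is at chr12:102554691-102554940 (plus strand), Chgb at chr2:132781392-132781641 (plus strand) and Sst at chr16:23890845-23891094 (minus strand). The GENCODE position of Chgb given above begins before its printed bases, so its distances hold for the RefSeq start only.
Chga: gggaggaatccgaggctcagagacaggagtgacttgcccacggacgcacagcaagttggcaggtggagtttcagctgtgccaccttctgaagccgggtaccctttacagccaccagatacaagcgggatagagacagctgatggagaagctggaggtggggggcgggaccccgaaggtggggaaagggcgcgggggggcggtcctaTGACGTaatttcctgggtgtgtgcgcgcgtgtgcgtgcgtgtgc
Chgb: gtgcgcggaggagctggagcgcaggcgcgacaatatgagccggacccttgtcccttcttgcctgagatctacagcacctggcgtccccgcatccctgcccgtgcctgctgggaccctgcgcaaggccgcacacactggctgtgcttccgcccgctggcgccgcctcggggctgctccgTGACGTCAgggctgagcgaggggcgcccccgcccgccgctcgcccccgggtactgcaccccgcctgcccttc
Sst: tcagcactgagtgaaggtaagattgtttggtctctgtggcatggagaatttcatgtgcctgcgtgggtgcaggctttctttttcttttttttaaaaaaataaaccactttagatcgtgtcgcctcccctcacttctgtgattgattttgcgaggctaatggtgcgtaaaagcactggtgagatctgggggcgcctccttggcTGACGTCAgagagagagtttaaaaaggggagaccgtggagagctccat
The core lay 44 bases before the start in Chga, and in Chgb and Sst both strands' copies overlapped as the palindrome TGACGTCA, beginning 72 and 48 bases before it. Of the 12 rule genes, 11 matched the promoter table and 3 held the core, Chga, Chgb and Cldn14, against 7.29% of 27025 genes in the table. Gcg, Tac1 and Tph1, which are described below, did not show the core among these bases, and neither did any of the 19 promoters of the 16 matched genes among the 25 highest over other cells. A match is a description of letters and not a site.

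Of the remaining rule genes, those for granule and peptide handling were higher in the library labelled knockout by less than 2-fold. Resp18, an endocrine granule protein, stood at 2170 against 3663 CPM in the epithelial members, Pcsk1n, an inhibitor of prohormone convertase 1, at 1377 against 2566 CPM, and Cpe, the carboxypeptidase that trims prohormones, at 1153 against 2021 CPM. Their ratios were 1.69 (1.54 to 1.85), 1.86 (1.67 to 2.09) and 1.75 (1.55 to 1.98), and 39, 42 and 45 of 54 labelled knockout cells lay above the wild-type median. Neurod1, a factor needed for enteroendocrine differentiation, stood at 497 against 714 CPM, a ratio of 1.44 (1.19 to 1.75). Over all members, the log2 ratio of Resp18 turned to -0.10 without members holding markers of other lineages. That of Neurod1 turned to -0.23 as the mean over single cells.

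Among the serotonin genes, the RNA of the first enzyme stood farthest apart. Tph1, which hydroxylates tryptophan (chromosome 7, 46644641 to 46672537, minus strand), had 476 UMIs in 22 of 31 wild-type epithelial members and 5556 in 52 of 54 labelled knockout ones, or 1546 against 11330 CPM, a ratio of 7.33 (6.67 to 8.07). Within the Tph1 class it ran from 536 through a median of 3305 to 8830 CPM per wild-type cell, and from 4148 through 11970 to 25640 CPM per cell labelled knockout. All 42 cells of the latter lay above the wild-type median and 32 above the highest wild-type cell. The summed ratio within the class was 3.61. Tph1 belongs to the rule and also sorted the class, so these values describe cells chosen in part by their Tph1. Over all members the log2 ratio was 2.66, and it lay between 1.70 and 2.88 under 11 other settings. In all other kept cells the summed Tph1 level was lower in the library labelled knockout, at 10.3 against 7.31 CPM. The share of these cells with a Tph1 UMI was higher there, at 1.075% against 2.197%. They include mast cells, which also use Tph1, with 99 and 9 such barcodes by their markers. Mast cell markers held at most 0.0814% and 0.0542% of UMIs in any epithelial member, with a median of 0%.

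The other steps of the pathway had smaller ratios. Ddc, which turns the product of Tph1 into serotonin, stood at 871 against 1544 CPM, a ratio of 1.77 (1.54 to 2.05), but its medians per cell in the Tph1 class were 1608 and 1505 CPM. Slc18a1, which loads serotonin into granules, stood at 185 against 171 CPM, a ratio of 0.925 (0.653 to 1.32). Gch1 and Qdpr, which make and recycle the cofactor of Tph1, had ratios of 1.53 (1.16 to 2.04) and 1.99 (1.36 to 2.98). Of the 13 genes of the serotonin list with at least 30 UMIs over the epithelial members, 1 (Tph1) was at least 2-fold higher, none at least 2-fold lower, and the median log2 ratio was 0.38, beside 0.10 over all 4357 genes tested. At least 2-fold higher were 11.5% of those genes and at least 2-fold lower 6.5%.

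Tac1, which encodes the precursor of substance P (chromosome 6, 7554879 to 7565834, plus strand), followed the same direction. It had 303 UMIs in 25 cells and 2964 in 52 cells, or 984 against 6045 CPM, a ratio of 6.14 (5.46 to 6.94). In the Tph1 class it ran from 0 through 1608 to 6646 CPM and from 0 through 5905 to 17610 CPM per cell, with 20 of 42 labelled knockout cells above the highest wild-type cell and a summed ratio of 3.37. Cldn14, a tight junction claudin (minus strand of chromosome 16, 93919031 to 94008837), had 679 against 2001 CPM, a ratio of 2.95 (2.54 to 3.44), and in the class at medians of 208 and 1939 CPM per cell, with 21 of 42 above the highest wild-type cell of the class. Over all epithelial members, 53 of 54 cells lay above the wild-type median for Cldn14 but only 3 above the highest wild-type cell, at 4531 CPM. The groups of cells overlapped for both genes, which also belong to the rule that chose the members. All other kept cells had Tac1 at 7.08 against 12.4 CPM and Cldn14 at 0.765 against 1.10 CPM.

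These 3 genes also differed in the share of cells with a UMI at equal depth. With each cell thinned to 1000 UMIs (30 and 49 epithelial members, 1 and 5 shallower ones left out), Tph1 was seen in 60% and 95.9% of cells, Tac1 in 53.3% and 98.0% and Cldn14 in 30% and 85.7%. At full depth the shares were 71.0% and 96.3%, 80.7% and 96.3%, and 74.2% and 98.2%. In all other kept cells thinned in the same way, Tph1 was seen in 0.596% and 0.694% and Tac1 in 0.364% and 0.658%.

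**Figure D3:**
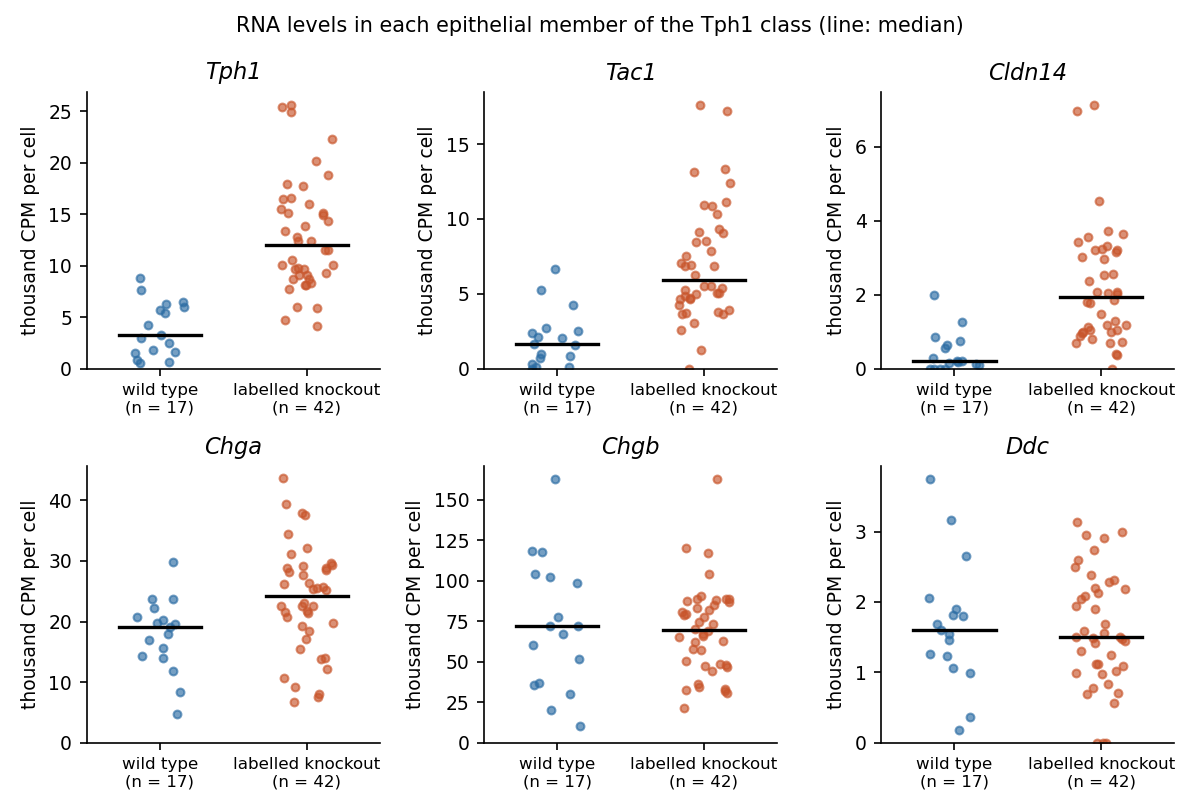
Each point is 1 epithelial member of the Tph1 class (17 wild-type and 42 labelled knockout cells), with its RNA level in units of 1000 CPM of its own UMIs and the median as a line, in 1 panel a gene. Tph1, Tac1 and Cldn14 have higher medians in the library labelled knockout (11970 against 3305 CPM for Tph1), while the Chgb and Ddc medians lie close together.

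The peptide hormones of L and D cells were lower in the library labelled knockout, and each rested on very few cells. In the 4 wild-type cells of the Gcg or Insl5 class, Gcg (chromosome 2, 62474530 to 62483650, minus strand) had 62, 126, 1460 and 2301 UMIs and Pyy (chromosome 11, 102106676 to 102107832, minus strand) 276, 2796, 6038 and 11107. In the 2 labelled knockout cells of the class, Gcg had 1086 and 1166 UMIs and Pyy 3498 and 7697. A further labelled knockout cell held 342 Gcg and 2698 Pyy UMIs beside 182 of Tph1. The counts per producing cell overlapped between the libraries, while the summed level was 12870 against 5554 CPM for Gcg, 2.32-fold (2.21 to 2.43) lower, and 67550 against 28880 CPM for Pyy, 2.34-fold (2.29 to 2.39) lower.

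Other hormones of this kind followed. Insl5, the relaxin-family hormone of colonic L cells, had 906 UMIs in 5 cells and 282 in 7 cells, 5.12-fold (4.47 to 5.87) lower in CPM. Ppy, pancreatic polypeptide, had 916 UMIs in 4 cells, 879 of them in 1, and 466 in 7 cells, 412 of them in 1. Cck, cholecystokinin, had 126 and 129 UMIs, a ratio of 0.643 (0.499 to 0.828), which turned above 1 over all members with thinned cells. Sst had 1674 and 2392 UMIs in 2 wild-type cells that held no Tph1 UMI and stood among the 5% of highest doublet scores. In the library labelled knockout it had 459 and 13 UMIs in 2 cells, which also held 148 and 96 Tph1 UMIs. Its summed level was 13.7-fold (12.5 to 15.1) lower, and without the doublet-scored cells the direction turned over.

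Sct, the secretin gene, was seen in more cells, but its summed wild-type level also rested mostly on few. It had a UMI in 20 of 31 and 18 of 54 epithelial members and stood at 786 against 182 CPM, 4.33-fold (3.38 to 5.59) lower. Of its 242 wild-type UMIs, 106, 49 and 38 lay in single cells of the Gcg or Insl5 class. In the Tph1 class its median was 224 CPM per wild-type cell and 0 CPM in the other library, and the highest cells had 1472 and 355 CPM. Of the 34 listed peptide hormones, 10 could be compared in epithelial members. Only Tac1 was at least 2-fold higher, 8 were at least 2-fold lower (Gcg, Pyy, Insl5, Ppy, Sst, Sct, Iapp and Guca2a), and the median log2 ratio was -1.88, beside 0.10 over all genes tested and -1.15 for the same genes in all other kept cells. Within the Tph1 class the list turned to a median of 2.47 over 4 genes. The neuropeptides Vip, Gal, Penk, Calcb and Grp were at 0 to 7 UMIs in the epithelial members of either library. Over all members Vip and Penk had 347 and 139 CPM in the library labelled knockout and Calcb and Grp 1873 and 466 CPM in the wild type, in members that led with enteric neuron markers.

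The 2 classes, taken over all members, also differed in genes other than those that sorted them. Of these, Chgb, Ddc and Pyy belong to the rule that chose the members. Beside Tph1, the Tph1 class had higher Chgb in both libraries, at 65970 against 744 CPM (Tph1 class against Gcg or Insl5 class) in the wild type and 59010 against 1484 CPM in the other. Ddc stood at 1550 against 106 CPM and 1542 against 102 CPM. Gsdma, a gasdermin, and Scn3a, a sodium channel that supports electrical activity, stood at 630 CPM against 0 UMIs and 379.5 against 29 CPM in the wild type, and at 520 against 25.6 and 258 against 25.6 CPM in the other. Sox4 stood at 589 against 67.7 and 597 CPM against 0 UMIs, and the vesicle fusion protein Snap25 at 444 against 58 and 322 against 51.2 CPM. The Gcg or Insl5 class had higher Pyy, Ppy, Cck and Scg2, the granin secretogranin 2, with Scg2 at 0 UMIs against 1566 CPM and 5.56 against 2636 CPM. The ETS factor Etv1 stood at 16.2 against 474 and 11.1 against 691 CPM. Of 1659 genes compared between the classes, 10.8% were at least 2-fold higher and 2.41% at least 2-fold lower in the Tph1 class in both libraries. With 4 and 2 cells in the smaller class, these values describe those cells. Of the 4 wild-type cells, 1 held 7.66% of its UMIs in goblet markers and another was marked by its doublet score.

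Outside the rule, transcription factors and neuron-like genes set the members apart from all other kept cells. Over the epithelial members, 406 of 4357 genes, 9.32%, were at least 4-fold above all other kept cells in both libraries; over all members it was 470 of 5656, 8.31%. Against the other wild-type epithelial cells alone, 427 of 4335 genes, 9.85%, passed 4-fold. Fev, a factor of serotonin-producing cells (minus strand of chromosome 1, 74881509 to 74885419), had 214 against 0.0319 CPM in the wild-type library (members against other cells) and 257 against 0.0522 CPM in the other. Lmx1a stood at 107 and 79.5 CPM, Nkx2-2 at 120 and 139, Insm1 at 270 and 204 and Rfx6 at 74.7 and 49.0 CPM in the members of the 2 libraries, with 0.0638 to 0.522 CPM elsewhere. Of the 19 listed enteroendocrine transcription factors tested outside the rule, 18 passed 4-fold in both libraries, as did 15 of 18 granin and processing genes, 14 of 17 exocytosis genes, 9 of 10 channel genes, 6 of 10 sensors, 6 of 7 hormones and 6 of 11 serotonin genes. Since the members were chosen by expression, these values are a description.

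The 25 genes highest over other cells were ranked over all members, including those that failed the gate and led with enteric neuron markers. They also held the olfactory receptor Olfr78, which responds to short-chain fatty acids, the somatostatin receptor Sstr1 and the gasdermin Gsdma. With them stood the neurofilaments Nefl and Nefm, the RNA-binding protein Elavl3, the active-zone protein Rimbp2 and the channel Scn3a. Olfr78 stood at 283 against 153 CPM between libraries, a ratio of 0.541 (0.392 to 0.746), and Sstr1 at 104 against 116 CPM. Among other sensors, the fatty acid receptor Ffar2 stood at 305 against 367 CPM and the stretch-gated channel Piezo2 at 309 against 279 CPM, with ratios of 1.20 (0.932 to 1.56) and 0.906 (0.692 to 1.19). Nefl and Nefm overlap on opposite strands, as do Nkx2-2 and its antisense RNA, and Olfr78 shares exons with Olfr560; the sources used here do not say whether the counting used strand.

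**Figure D4:**
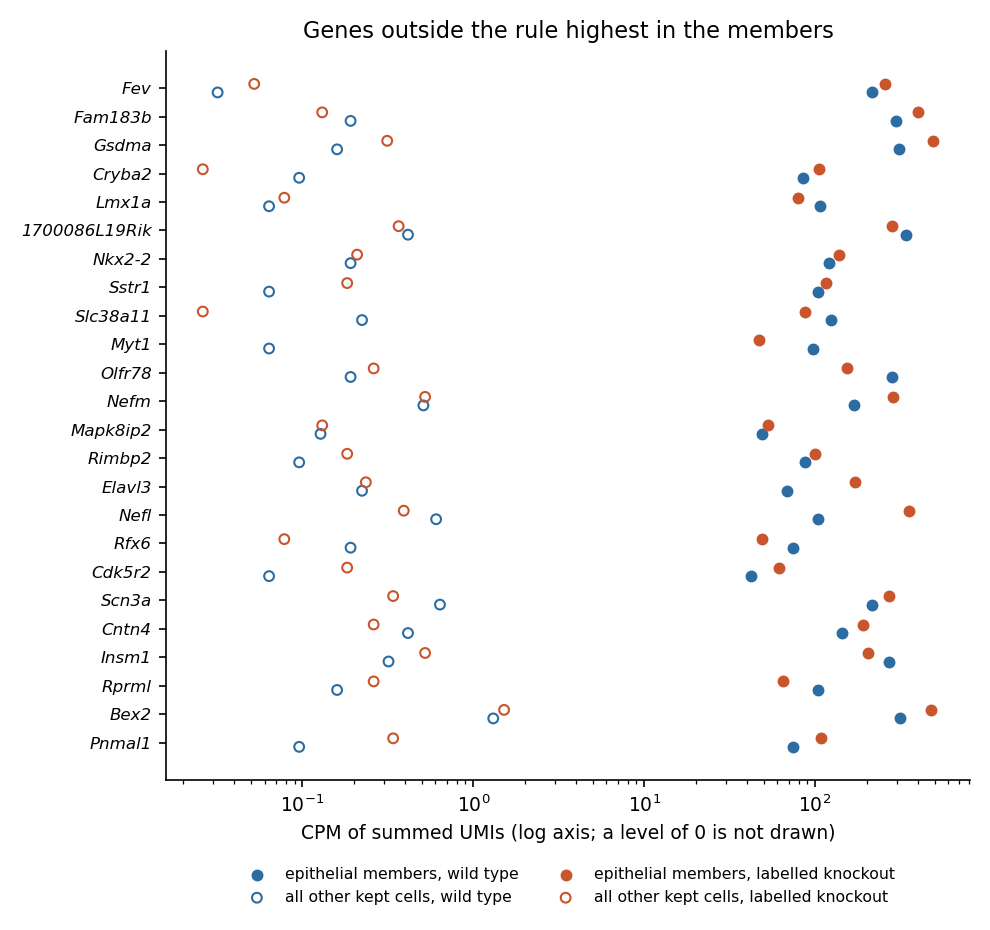
Levels in CPM of summed UMIs (log axis) of genes outside the rule from among the 25 that stand highest over all other kept cells, ranked over all members. Filled points are for the epithelial members and open points for all other kept cells of the 2 libraries. Filled points lie near 100 CPM or above for most genes (Fev at 214 and 257 CPM), and open points near or below 1 CPM.

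Between the libraries, most genes of the members lay within 2-fold. Over all members, 627 of 5656 genes, 11.1%, were at least 2-fold higher in the library labelled knockout and 508, 8.98%, at least 2-fold lower, so that 55.2% of these were higher. TMM scaling gave 753 and 380, 66.5% higher. In the epithelial members it was 499 (11.5%) and 283 (6.5%) of 4357, and in their Tph1 class 352 (13%) and 178 (6.58%) of 2704. Of the 406 genes that marked the epithelial members, 59 were at least 2-fold higher, 43 at least 2-fold lower and 304 within 2-fold. In the lists of the secretory machinery, 3 of 23 granin and processing genes were at least 2-fold higher and 2 lower (median log2 ratio 0.54). It was 1 and 1 of 17 exocytosis genes (0.30) and 1 and 2 of 20 transcription factors (-0.30). Of 10 sensors it was 1 and 1 (-0.13), and of 10 channel genes 2 and 1 (0.36). These counts stand beside the 11.5% higher and 6.5% lower of all 4357 genes.

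Some members of these lists stood past 2-fold. Ptprn, the granule membrane protein IA-2, had 31 UMIs in 16 cells and 201 in 45 cells, or 101 against 410 CPM, a ratio of 4.07 (2.78 to 6.15), and 2.71 within the Tph1 class; other cells had 0.925 against 2.90 CPM. The potassium channel Kcnb2 had a ratio of 3.77 (1.45 to 12.4), at 5 against 30 UMIs, and the homeobox factor Mnx1 one of 2.72 (1.10 to 8.08), at 6 against 26 UMIs. On the other side, the calcium sensor Scgn was 5.25-fold (3.38 to 8.40) lower, at 89 UMIs in 10 cells against 27 in 8, the factor Pax6, which drives glucagon, 3.82-fold (1.76 to 8.96) and Myt1 2.08-fold (1.167 to 3.74) lower. The calcium channel Cacna1a was 2.97-fold (1.54 to 5.99) lower, at 28 against 15 UMIs. C2cd4b and Bok were named after their values were seen: C2cd4b stood at 542 against 1909 CPM, a ratio of 3.52 (2.98 to 4.18), and Bok, a BCL-2 family member, at 84.5 against 496 CPM, 5.87 (3.91 to 9.17), with 9.53 and 8.14 within the Tph1 class.

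**Figure D5:**
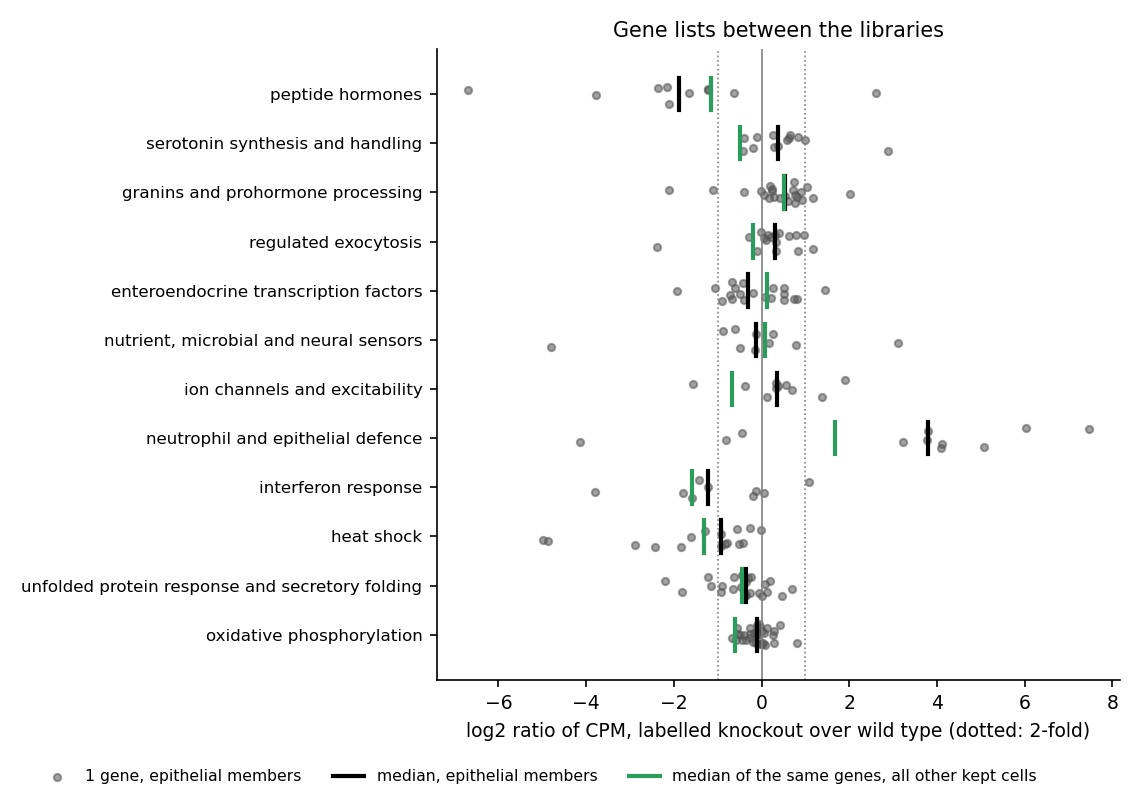
The log2 ratio of CPM (labelled knockout over wild type, horizontal axis) of each listed gene with at least 30 UMIs over the epithelial members, by gene list, with the list's median in black and the median of the same genes in all other kept cells in green. The defence list lies to the right at a median of 3.79, against 1.67 in other cells, the hormones to the left at -1.88, and the secretory lists lie around 0.

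The genes farthest apart between libraries included many that other cells of the libraries also held at high levels. Among genes that are not markers of another cell class, and that were seen in at least 10% of members of 1 library, the 12 highest ratios in the epithelial members were those of Lcn2, Mmp3, Saa3, Serpine2, Il11, Mmp10, Fcer1g, Ngp, Col5a2, Gpx3, Csf1 and Serpina3n. Saa3, an acute-phase protein (chromosome 7, 46711998 to 46715700, minus strand), had 14 UMIs in 10 cells and 1454 in 53 cells, or 45.5 against 2966 CPM, a ratio of 65.2 (38.7 to 119.6); all other kept cells had 1769 against 18890 CPM. Lcn2, the siderophore-binding lipocalin, had 2 UMIs in 2 cells and 560 in 32 cells, a ratio of 176 (48.5 to 1455), with 142 against 2492 CPM in other cells. The fibroblast cytokine Il11 and the matrix enzyme Mmp3 had 1 against 95 UMIs and 4 against 632 UMIs. For 11 of the 12, the level in the labelled knockout members lay below that in the library's other cells, and the same held for 208 of all 499 genes at least 2-fold higher. The exception, Csf1, stood at 118 CPM in the members and 50.4 CPM in the other cells. The part that RNA of other cells has in these values was not tested.

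Beside these stand marker lists of other cells, some with higher ratios still. The leukocyte markers S100a8 and Retnlg had 4 against 2525 and 2 against 1019 UMIs in the epithelial members, ratios of 396 and 320. Leukocyte markers held up to 0.366% of UMIs in wild-type epithelial members and up to 11.98% in those labelled knockout, where 7 of 54 cells were over 2%. Stromal and endothelial markers held up to 0.0736% and 3.38%, with 3 cells over 2%. Over all members the 12 highest outside those lists were Il11, Mmp3, Lcn2, Saa3, Csf3, Ccl11, Gja1, Cxcl5, Grem1, Mmp10, Cp and Ngp, all 12 of them below the level of the other cells, with Il11 at 2.62 against 730 CPM, a ratio of 279, and Retnlg, a leukocyte marker, at 421. Of the 11 defence genes tested in epithelial members, 8 were at least 2-fold higher and 1 lower, with a median log2 ratio of 3.79, against 1.67 for the same genes in other cells. Slpi, a protease inhibitor, belongs to that list; it had 31 UMIs in 12 cells and 462 in 40, a ratio of 9.36 (6.50 to 13.9), while other cells stood at 801 against 877 CPM, a ratio of 1.10.

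The lowest genes included products of colonocytes and goblet cells. In epithelial members the 12 lowest outside the marker lists were Klk1, Mptx1, Guca2a, Snord118, Phgr1, Hspa1b, Hspa1a, Agtr1a, Kcnk3, Prss32, St6galnac6 and Rbp4, and 8 of them were also among the 12 lowest over all members. Klk1 had 195 UMIs in 8 cells and 1 UMI. Guca2a, the guanylin gene of colonocytes, had 195 UMIs in 7 cells and 0, or 103.5-fold lower with the 0 taken as 3 UMIs. In all other kept cells Guca2a stood at 317 against 0.235 CPM. The goblet list held 0 to 8.99% of UMIs in wild-type epithelial members and 0 to 0.101% in the others, beside 941 against 5 other epithelial cells in the libraries; the part of those cells in these values was not tested. In the wild-type library 2 members carried nearly all of it, at 8.99% and 7.66% of their 22152 and 30333 UMIs, and no other member passed 0.19%. Its Agr2 and Spink4, lower still than Klk1, had 1766 and 1848 wild-type UMIs against 0 and 1, with 75.9% and 61.8% of them in a single member. A single member likewise held 93.1% of the wild-type UMIs of Mptx1, 57.7% of those of Guca2a and 54.9% of those of Klk1.

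Stress and immune lists are given with the median log2 ratio of the same genes in other cells. Their counts stand beside the 11.5% higher and 6.5% lower of all 4357 genes. The heat shock list had no gene at least 2-fold higher and 7 of 16 at least 2-fold lower in epithelial members, a median log2 ratio of -0.92, against -1.31 for the same genes in other cells. Hspa1a, the inducible chaperone, was at 1377 against 46.9 CPM in the members and 2150 against 304 CPM elsewhere. The interferon list had 1 gene higher and 5 lower of 9, at -1.22 against -1.59 elsewhere. Metallothionein, iron and antioxidant genes had 7 higher and 3 lower of 18 at a median of 0.17, against 0.425 elsewhere. Among genes named after their values were seen, which also include S100a8, Retnlg, Slpi, Agr2, Spink4 and Fth1, Mt1 had a median of 536 and 2694 CPM per cell. All 54 labelled knockout cells lay above the wild-type median for Mt1. The iron store subunit Fth1 stood at 1319 against 4909 CPM, and at 3681 against 21740 CPM in other cells. MHC class I (0 and 0 of 12) and immediate early genes (1 and 0 of 23) held nearly all genes within 2-fold. So did oxidative phosphorylation (0 and 0 of 33). Their medians were -0.08, -0.15 and -0.10, against -0.53, -0.72 and -0.60 elsewhere. Of 23 secretory folding genes, 0 were higher and 4 lower, at -0.36 against -0.44 elsewhere. Hypoxia and glycolysis had 2 and 2 of 18, at -0.10 against 0.004 elsewhere. MHC class II genes had 0 higher and 2 lower of 5, at -0.97 against -1.68 elsewhere.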

How the data were processed

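Single-cell RNA-seq counts from 2 libraries (wild type and labelled knockout, 1 pool of 3 mice each) were used as deposited. The deposited counts are raw UMI counts per gene and barcode; per the submitters' processing notes the authors used cutadapt 1.17, STAR 2.6.1a, featureCounts 2.0.1 and the GRCm38 build. The libraries held 32481613 and 39750319 UMIs in 8635 and 10012 barcodes. Members and gene lists were chosen with earlier results of these data known. UMIs were summed over cells and scaled to CPM; levels carry exact Poisson, ratios exact conditional binomial and shares Clopper-Pearson intervals at 95%, for counting error only. Genes with at least 30 UMIs over the members were compared, and at least 2-fold between libraries (4-fold over other cells) was counted. Named genes were the rule genes, listed genes of each role with at least 30 UMIs, the 25 highest over other cells seen in at least 20% of members of each library, the 12 highest and 12 lowest between libraries whose interval excluded 1 (seen in at least 10% of members of 1 library, and leaving out markers of other cell classes and mitochondrial, ribosomal, haemoglobin, antigen receptor, sex-linked and unnamed genes), and the 8 highest of each hormone class; the exceptions are named as such, and 1 gene of the 25 is not reported here. Doublets were scored with Scrublet in scanpy 1.11.5 and members were not removed for it; the caller marked 2 wild-type barcodes (0.025%), too few to have worked, so there the 5% highest scores (406) were taken, and 260 (2.67%) in the other library. Members so marked numbered 8 and 3. The counting was run on simulated counts without spread between cells or mice, so it does not cover sums that rest on few cells. At true folds of 2 and 0.5, 36% and 54.55% of genes passed the 2-fold limit, against 1.79% of unchanged genes. Python 3.11.15, numpy 2.4.6, scipy 1.17.1, R 4.3.3 and edgeR 4.0.16 (TMM only) were used, and gene positions are from GENCODE.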

Additional observations from a re-analysis of the deposited data

How the results depend on the processing

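No paired analysis was possible because each group is 1 library and both are labelled replicate 1, so leaving out a replicate was not possible either. Of the values of named genes under other settings, 1118 kept their sign and side of 2-fold, 57 moved past it, 17 moved inside it, 35 changed sign with either value past 2-fold, and 137 changed sign within it; of the list medians 157 stayed, 23 moved and 7 reversed. The settings with epithelial and single-lineage epithelial members were chosen after seeing the data. Causes of the shifts below were not tested.

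The share of members in the library labelled knockout over wild type (2.11) was 0.308 without members holding markers of other lineages (19 and 7 members left), 27.1 as a share of epithelial barcodes and 1.18 for single-lineage epithelial members.

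Genes at least 2-fold higher (627) numbered 1412 from 10 UMIs, 184 from 100 UMIs, 49 without members holding markers of other lineages, 401 in the Tph1 class and 346 in single-lineage epithelial members. Genes at least 2-fold lower (508) numbered 1374, 121, 120, 200 and 197 under those settings and 283 in epithelial members. Genes at least 4-fold over other cells (470) numbered 182 from 100 UMIs. With TMM scaling the median log2 ratio of all genes was 0.11 in place of -0.04.

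The hormone median (log2 -1.66) was -1.51 with TMM, -1.47 thinned, -2.0 as the mean over cells, -1.88 from 10 UMIs, -2.10 from 100 UMIs, -1.43 with at least 10 Chga and Chgb UMIs, -0.90 without doublets, -2.64 without members holding markers of other lineages, 2.37 in the Tph1 class and -1.88 in epithelial members. The defence median (3.98) was 2.30 thinned, 3.11 from 10 UMIs, -0.99 without members holding markers of other lineages and 2.91 in single-lineage members. Without members holding markers of other lineages, channels stood at -0.74, MHC class I at -0.88, immediate early genes at -0.85, hypoxia at 0.17 and oxidative phosphorylation at 0.24. Thinned, sensors stood at -1.16, MHC class II at -0.012, secretory folding at 0.12 and oxidative phosphorylation at -0.05. MHC class II was -0.32 from 100 UMIs and hypoxia 0.32 as the mean over cells. Secretory folding was 0.26 in the Tph1 class and 0.068 in single-lineage members; oxidative phosphorylation was -0.20 and 0.13 there and -0.10 in epithelial members.

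Of 154 named genes 70 changed sign under some setting, Chgb (-0.17) and Ddc (-0.19) among them when thinned. Past 2-fold, Sst reversed to 2.98 without doublets and 5.76 in the Tph1 class, and Iapp to 2.86 and 3.08. Penk (-0.79), Pcsk2 (0.80) and Syt1 (0.12) reversed when thinned. Syt1 (0.70), Syt4 (0.57) and Rab3a (0.10) reversed as the mean over cells, and Rab3a also in epithelial (0.045) and single-lineage members (0.10).

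Genes within 2-fold turned past it the other way as follows. Thinned, these were Cacna2d1 (-1.20), Ffar2 (-1.20), Lmx1a (1.80), Ptprn2 (-2.05), Pts (2.12), Rab27a (1.12), Rab3d (1.604), Rims2 (-2.20), Syt13 (-1.03) and Vgf (-1.62). As the mean over cells they were Celf4 (1.18), Fev (-1.10), Napb (1.96) and Sv2a (1.05). Without members holding markers of other lineages they were Pcbd1 (1.33), Scg5 (-2.96), Snap25 (1.29), Sox4 (-1.33), Syt13 (-1.04) and Syt5 (1.09). In epithelial members they were Kcnb2 (1.91) and Rab3c (1.18), and in single-lineage members Rab3c (1.20).

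Of the wild-type members 54.6% had neither hormone when thinned. Of those labelled knockout the Tph1 class was 65.1% with a limit of 1 UMI and 77.8% in epithelial members, cells with both were 3.49% with a limit of 10 and 3.95% thinned, and cells with neither were 17.4% with a limit of 1 and 3.70% in epithelial members.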
